A study of Mus musculus with 6 samples.

Results

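The ADAM, ADAMTS, MMP and TIMP genes encode several families of extracellular and membrane-bound metalloproteinases, related proteins without a working protease, and proteinase inhibitors. They were taken from the deposited gene tables by symbol (Adam, Adamts or Mmp followed by a number, the Adamtsl genes, and Timp1 to Timp4), which gave 83 of the 23038 genes listed. By role, 32 were ADAM genes, 19 ADAMTS genes, 5 ADAMTSL genes, 6 membrane-type MMP genes, 17 other MMP genes and 4 TIMP genes. The values came from mouse primary cultured oligodendrocyte precursor cells (mOPCs), purified by immunopanning from embryos, and polyadenylated RNA was sequenced. One group of 3 libraries was transfected with control siRNA (siNC) and the other group of 3 with siRNA for Qk (siQk), and the cells of both were collected 72 h after transfection. The question was which transcripts of mOPCs change once Qk, which encodes the RNA-binding Qki proteins, is knocked down. Both groups were transfected cultures without an untreated control among them. The study used several siRNAs against Qk, and which of them a given library received is not stated in the sources used here. The libraries are described as biological replicates, without naming the culture or the animals behind each, so that the p-values measure the spread between these libraries.

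ADAMs are membrane proteins, and those with a working zinc site cut the ectodomains of other membrane proteins at the cell surface, which releases growth factors and adhesion molecules. ADAMTS enzymes are secreted and cut proteoglycans and other matrix proteins, whereas ADAMTSL proteins share their accessory domains without the protease. MMPs cut matrix and cell surface proteins, either as secreted enzymes or, in the membrane-type group, anchored to the membrane, and TIMPs bind and block the active site of many of them. In the oligodendrocyte (OL) lineage these proteins are studied for precursor migration, process outgrowth and turnover of the matrix.

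The libraries held 58166490 to 141045937 tags, a tag being the counting unit of the deposited files. The levels below are the deposited RPKM, the tags of a gene scaled by its exon length and by the total of the library, and fold changes are log2 values of siQk over siNC from edgeR's quasi-likelihood test on the tags after TMM scaling. A call of change required P below 0.01 together with an FDR (Benjamini-Hochberg, over all genes tested) below 0.1. The TMM factors were 0.899 to 0.987 in siNC and 1.04 to 1.07 in siQk, so that a log2 fold change lies somewhat below the ratio of the RPKM means. Qk itself was at 209, 206 and 163 RPKM in siNC and at 51.3, 76.6 and 36.2 RPKM in siQk, a log2 fold change of -1.98 (SE 0.28, FDR 0.0031). The siQk libraries were all below the siNC libraries, as their labels state.

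Of the 83 genes, 35 passed the filter on low counts and were tested. Of these, 16 were called changed (45.7%), against 31% of all 12505 genes tested. There were 11 lower transcripts in siQk (31.4%, against 17.2% of all genes) and 5 higher ones (14.3%, against 13.8% of all genes). Without TMM factors, that is with library totals alone, the same test called 9 lower and 8 higher, and the median of all genes moved from 0.01 to 0.16 on the log2 scale. Without siNC replicate 2 it called 10 lower and 8 higher. The shares of all genes called under these settings are not given here. The median log2 fold change of the 35 was 0.042, beside 0.010 over all genes. Calls in both directions occurred in the ADAM, the ADAMTS and the TIMP genes. The RPKM ranges of the siNC and siQk libraries did not overlap for 22 of the 35 (62.9%), against 58.3% of all genes tested. They did not overlap for 15 of the 16 called, all except Adam10. The calls rest on the same libraries, so this count is no separate evidence. Its share over all called genes was not taken. For genes with ranges apart, taken singly, a two-sided exact permutation test gave p = 0.1, and groups of 3 cannot give a smaller one. Of the 16, 5 moved by at least 1 on the log2 scale.

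**Figure D1:**
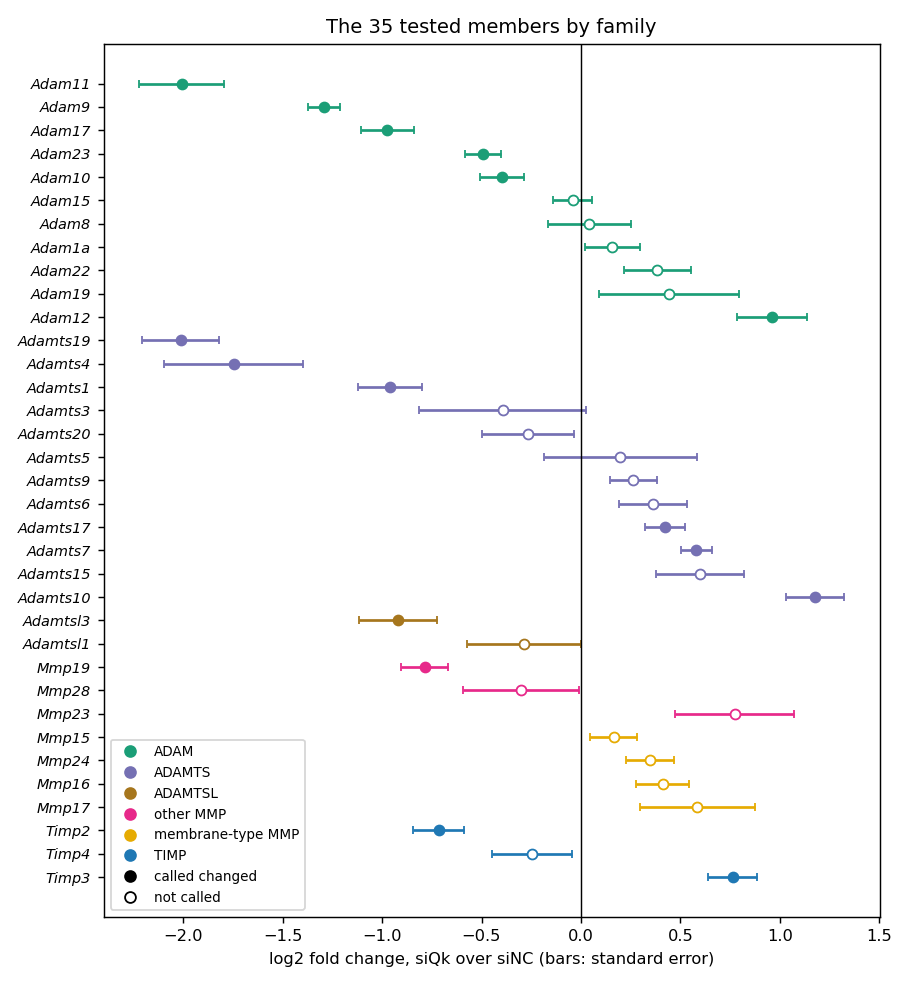
Log2 fold change of siQk over siNC (x axis) for each of the 35 tested members (y axis), grouped by family and ordered within it, with the standard error from edgeR as bars. Filled points are the 16 called changed, and the 4 membrane-type MMP genes are open points to the right of 0.

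Among the ADAM genes, 11 of 32 were tested and 6 were called (54.5%, against 31% of all genes), 5 lower and 1 higher. The lower ones included all 3 of the abundant sheddases Adam9, Adam10 and Adam17, together with Adam11 and Adam23, which belong to the ADAMs that lack a working protease site and bind LGI proteins. The summed level of all ADAM genes was 258.8 ± 24.0 RPKM in siNC against 179.3 ± 4.58 RPKM in siQk (SD, n = 3 each).

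Adam9, a broadly expressed sheddase, was the most abundant of all members in siNC. It was at 113, 129 and 113 RPKM in siNC and at 55.4, 52.0 and 53.7 RPKM in siQk. The siQk libraries lay close together and far under every siNC library. The log2 fold change was -1.29 (SE 0.08, FDR 0.00040), that is 2.45-fold lower. The gene lies at chr8:24949611-25016927 on the minus strand (mm10). Chromosome 8 holds 12 ADAM genes, and none of the other 11 passed the filter. Its neighbour Adam32, on the same strand, lies 806 bases away.

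Adam17, the enzyme that releases tumour necrosis factor and several ligands of the epidermal growth factor receptor, was at 25.4, 28.4 and 26.5 RPKM in siNC and at 12.2, 17.9 and 15.4 RPKM in siQk. All siQk libraries were lower, with replicate 2 the highest among them. The log2 fold change was -0.97 (SE 0.13, FDR 0.0029). Exons of Adam17 share 311 bases with Iah1 on the opposite strand, and the library kit does not mark strand. Iah1 had a log2 fold change of -0.015 (FDR 0.92).

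Adam10, the sheddase of Notch receptors, N-cadherin and the amyloid precursor protein, was at 60.2, 80.7 and 78.6 RPKM in siNC and at 66.6, 56.0 and 61.9 RPKM in siQk. The ranges overlapped, since siNC replicate 1 was below a pair of siQk libraries. After division by the TMM factors they did not, with 66.9 in siNC replicate 1 and at most 63.3 in siQk. The call (log2 fold change -0.40, SE 0.11, FDR 0.031) was the least stable one and was lost when any library other than siNC replicate 1 was left out. With 1 library left out its log2 fold change ran from -0.48 to -0.32. The ratio of Adam10 to Adam9 RPKM was 0.531, 0.626 and 0.696 in siNC and 1.20, 1.08 and 1.15 in siQk. Adam9 was thus the higher of these transcripts in every siNC library, and Adam10 in every siQk library. Adam9, Adam10 and Adam17 together made up 84.4% ± 1.10 (SD, n = 3) of the summed ADAM level in siNC and 72.7% ± 0.866 (SD, n = 3) in siQk.

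The non-catalytic ADAMs did not move alike. Adam11 was at 4.26, 3.91 and 2.60 RPKM in siNC and at 0.963, 1.04 and 0.990 RPKM in siQk. Every siQk library was under every siNC library, and the log2 fold change was -2.01 (SE 0.21, FDR 0.0014), or 4.02-fold lower. Adam23 was at 1.61, 1.97 and 1.80 RPKM in siNC and at 1.49, 1.41 and 1.34 RPKM in siQk, a narrow gap without overlap. Its log2 fold change was -0.49 (SE 0.09, FDR 0.0076), and this call was lost with library totals alone. Adam22, a receptor for LGI proteins, was at 9.70, 11.3 and 7.22 RPKM in siNC and at 12.8, 14.0 and 14.2 RPKM in siQk. It did not pass the test (log2 fold change 0.38, SE 0.17, FDR 0.11), although the ranges were apart. With library totals alone Adam22 was called higher (log2 fold change 0.54, FDR 0.025).

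Adam12, meltrin alpha, was the only ADAM gene called higher. It was at 2.04, 2.39 and 1.62 RPKM in siNC and at 5.06, 4.13 and 3.91 RPKM in siQk. All siQk libraries were above all siNC libraries, and the log2 fold change was 0.96 (SE 0.18, FDR 0.0076). Adam19, meltrin beta, was at 4.31, 11.3 and 4.87 RPKM in siNC and at 12, 9.33 and 9.48 RPKM in siQk. Only siNC replicate 2 reached the siQk levels, and with it the log2 fold change of Adam19 was 0.44 (FDR 0.35), whereas without it the gene was called at 1.0 (FDR 0.0055). Adam15 had nearly the same level in both groups (11.8 to 15.3 RPKM in siNC and 13.6 to 15.5 RPKM in siQk, log2 fold change -0.04, SE 0.10, FDR 0.76), and its sign changed with the scaling. Adam8 and Adam1a had log2 fold changes of 0.04 and 0.16 and were not called, and that of Adam8 was -0.15 without siNC replicate 3.

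**Figure D2:**
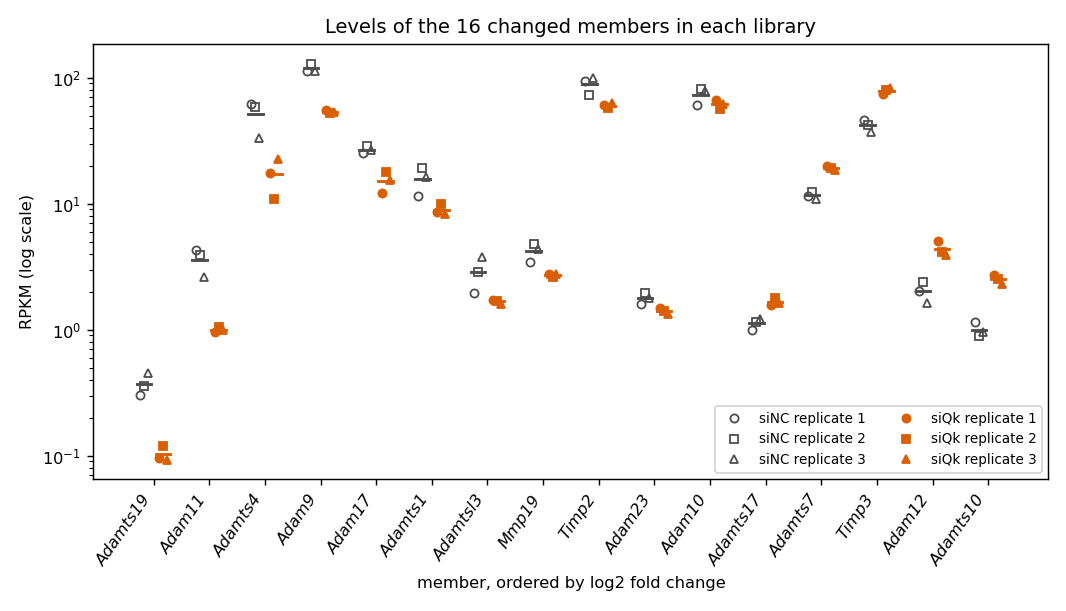
RPKM on a log axis (y) of the 16 called members (x, ordered by log2 fold change) in each of the 3 siNC libraries (open grey symbols) and 3 siQk libraries (filled orange symbols), with lines at the group means. The groups are apart for 15 of the 16, while for Adam10 the symbols of both groups overlap.

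The 3′UTRs were searched for the hexamers ACUAAC and ACUAAU, the core of the element that Qki proteins are known to bind, on the transcript strand only, since the element is read in RNA. At least 1 hexamer was found in 16 of the 35 tested members (45.7%), beside 36.0% of the 11855 tested genes with an annotated 3′UTR. The 3′UTRs of the members were longer (median 2437 bases, beside 1286), and per kilobase they held 0.319 hexamers, beside 0.345 over all these genes. Among the lower members 6 of 11 held one, with 0.497 per kilobase of 3′UTR, beside 52.9% and 0.493 per kilobase over all lower genes. Among the higher members 2 of 5 held one, with 0.293 per kilobase, beside 27.3% and 0.245 per kilobase over all higher genes. Of the 19 members not called 8 held one (42.1%), with 0.250 per kilobase, beside 33.5% and 0.320 per kilobase over all genes not called. A match is a run of letters in the reference and was not tested as a bound site. Adam9 and Adam17 had 2 hexamers each and Adam12, which was higher, had 3, whereas Adam10, Adam11 and Adam23 had none. Of all 3′UTRs within 10% of the length of that of Adam9, 31.0% held a hexamer and 5.77% held at least as many. The shares were 42.4% and 13.4% for Adam17, and 77.0% and 23.6% for Adam12. The sites of these called ADAM genes are printed 5′ to 3′ as RNA with 12 bases on each side, read from GENCODE M21 (GRCm38, the assembly of mm10), and capitals mark the hexamer.
Adam9, chr8:24950471-24950500, minus strand: uaacuuaggaagACUAAUugccaauaacgu
Adam9, chr8:24949897-24949926, minus strand: cugucucuuuugACUAAUauuuucguaaac
Adam17, chr12:21323973-21324002, minus strand: gacgccuguuacACUAAUacuugaauauau
Adam17, chr12:21323543-21323572, minus strand: ugucugugaauuACUAAUaaagcuacgcac
Adam12, chr7:133886322-133886351, minus strand: uuuggaaggguaACUAACauuaauggcugg
Adam12, chr7:133885549-133885578, minus strand: caagacgucaaaACUAAUacaguucauuug
Adam12, chr7:133884171-133884200, minus strand: aaucaaguuagcACUAAUuacaaaaugcuu

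Among the ADAMTS genes, 12 of 19 were tested and 6 were called (50%, against 31% of all genes), 3 lower and 3 higher. The lower ones held the proteoglycan-cutting enzymes Adamts4 and Adamts1, and the higher ones were Adamts7, Adamts10 and Adamts17. The summed level was 90.4 ± 16.2 RPKM in siNC against 61.3 ± 4.69 RPKM in siQk (SD, n = 3 each).

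Adamts4, an aggrecanase that cuts aggrecan, brevican and versican and is known to be expressed by oligodendrocytes, was at 62.3, 58.5 and 33.2 RPKM in siNC and at 17.6, 10.9 and 22.7 RPKM in siQk. The groups did not overlap, but the spread within each was wide. The log2 fold change was -1.75 (SE 0.35, FDR 0.010), 3.35-fold lower. Adamts4 made up 65.5%, 56.4% and 45.9% of the summed ADAMTS level in siNC and 28.1%, 19.5% and 34.9% in siQk. The summed RPKM of 7 mature OL markers (Mbp, Mag, Mog, Mobp, Opalin, Cnp and Cldn11) was 2753, 2185 and 1759 in siNC and 926, 841 and 1138 in siQk. The order of the libraries within each group was that of Adamts4 for this sum. Taken singly, all 7 had that order in siQk. In siNC Mbp, Mag and Cnp had it, while Mog, Mobp, Opalin and Cldn11 did not. Of these markers 6 of 7 were called lower, against 17.2% of all genes, and their part in the result for Adamts4 was not tested. In bulk RNA, fewer cells of a type and less RNA per cell cannot be told apart.

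Adamts1, which cuts versican and aggrecan, was at 11.5, 19.3 and 16.1 RPKM in siNC and at 8.61, 9.87 and 8.21 RPKM in siQk. All siQk libraries were lower, and siNC replicate 1 stood nearest to them. The log2 fold change was -0.96 (SE 0.16, FDR 0.0056). Adamts5, the other aggrecanase of this locus on chromosome 16, lies 53059 bases from Adamts1 with no protein-coding gene between them. It was at 0.458, 1.27 and 0.530 RPKM in siNC and at 0.897, 0.801 and 1.17 RPKM in siQk, and was not called (log2 fold change 0.20, SE 0.39, FDR 0.71). Its highest value was again in siNC replicate 2, and without that library the log2 fold change was 0.79 (FDR 0.030) and the gene was called. Without siNC replicate 1 or 3 it was -0.027 or -0.022, so that the direction also rests on single libraries.

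Adamts19 was lower at a low level. It was at 0.304, 0.359 and 0.452 RPKM in siNC and at 0.0954, 0.119 and 0.0932 RPKM in siQk. The groups were apart, with a log2 fold change of -2.01 (SE 0.19, FDR 0.0010). Adamts20 and Adamts3 had log2 fold changes of -0.27 and -0.39 with SEs of 0.23 and 0.42 and were not called. Without siNC replicate 2 these values were -0.007 and 0.12, and without siNC replicate 3 that of Adamts3 was -0.75.

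Adamts7, known for cutting cartilage oligomeric matrix protein, was the most abundant of the higher ADAMTS transcripts. It was at 11.5, 12.5 and 10.9 RPKM in siNC and at 20.1, 19.3 and 18.6 RPKM in siQk, so that every siQk library exceeded every siNC library. The log2 fold change was 0.58 (SE 0.08, FDR 0.0028). It made up 12.1%, 12% and 15.1% of the summed ADAMTS level in siNC and 32.0%, 34.5% and 28.6% in siQk, where it passed Adamts4 in replicates 1 and 2 while Adamts4 stayed the higher in replicate 3. Its exons share 122 bases with Tbc1d2b on the opposite strand, which was lower in siQk (log2 fold change -0.76, FDR 0.0051).

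Adamts10, which is known to bind fibrillin microfibrils, was at 1.15, 0.888 and 0.957 RPKM in siNC and at 2.70, 2.54 and 2.30 RPKM in siQk. This was the highest log2 fold change of the tested members (1.18, SE 0.15, FDR 0.0023), 2.26-fold, with all siQk libraries above all siNC libraries. Adamts17 was at 0.990, 1.16 and 1.23 RPKM in siNC and at 1.57, 1.80 and 1.64 RPKM in siQk. Its log2 fold change was 0.42 (SE 0.10, FDR 0.019), and the call was lost when any library other than siNC replicate 3 was left out. Adamts15 was at 0.505, 0.886 and 0.686 RPKM in siNC and at 1.39, 0.977 and 1.11 RPKM in siQk and was not called (log2 fold change 0.60, SE 0.22, FDR 0.072), though without siNC replicate 2 it was (0.80, FDR 0.032). Adamts6 and Adamts9 had log2 fold changes of 0.36 and 0.26 and did not pass, although without siNC replicate 3 Adamts6 was called at 0.59 (FDR 0.0073).

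Of the ADAMTSL genes, 2 of 5 were tested. Adamtsl3, a matrix protein without protease domain, was at 1.96, 2.88 and 3.79 RPKM in siNC and at 1.73, 1.69 and 1.61 RPKM in siQk. The siQk libraries were tight and just under the lowest siNC library, and the log2 fold change was -0.92 (SE 0.19, FDR 0.012). This call was lost without siQk replicate 2 or siQk replicate 3. Adamtsl1 had values of 3.39 to 8.37 RPKM in siNC and 4.99 to 6.48 RPKM in siQk and was not called (log2 fold change -0.29, FDR 0.46). It was called at -0.57 (FDR 0.021) without siNC replicate 1 and was at -0.057 without siNC replicate 2. In the 3′UTRs, Adamts1 had 3 hexamers, Adamtsl3 had 2 and Adamts19 had 1 (as 32.9% of 3′UTRs of like length had at least 1), while Adamts4, Adamts7, Adamts10 and Adamts17 had none. Of all 3′UTRs of like length, 36.3% held a hexamer and 2.69% held at least as many as Adamts1, and for Adamtsl3 these shares were 47.1% and 15.3%. The sites of Adamts1 and Adamtsl3, the lower genes of these families with more than 1 hexamer, are shown.
Adamts1, chr16:85795071-85795100, minus strand: cuguugcacuguACUAACuagauacuucuu
Adamts1, chr16:85794036-85794065, minus strand: guuuauagacguACUAAUaaaaaagaaguu
Adamts1, chr16:85793991-85794020, minus strand: gguaagauuguuACUAAUgugguuggcaaa
Adamtsl3, chr7:82612717-82612746, plus strand: auauaguuuaggACUAACacaaaugcauca
Adamtsl3, chr7:82614223-82614252, plus strand: uauauuuuucauACUAACaaaauuucuuau

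The inhibitors exchanged places. Timp2, a secreted inhibitor that also takes part in the activation of Mmp2 at the cell surface, was the leading TIMP transcript in siNC, and Timp3, which binds to the matrix and also inhibits ADAM17 and aggrecanases, was the leading one in siQk. Timp2 was at 94.5, 73.1 and 98.8 RPKM in siNC and at 60.9, 57.1 and 62.4 RPKM in siQk. Every siQk library was lower, with a log2 fold change of -0.72 (SE 0.13, FDR 0.0070). Timp3 was at 46.5, 41.9 and 36.9 RPKM in siNC and at 74.6, 79.7 and 82.7 RPKM in siQk. Here every siQk library was higher, with a log2 fold change of 0.76 (SE 0.12, FDR 0.0049).

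The ratio of Timp3 to Timp2 RPKM was 0.492, 0.573 and 0.374 in siNC and 1.23, 1.40 and 1.33 in siQk, and since it is taken within a library it does not depend on the scaling between libraries. Timp3 made up 31.1%, 34.8% and 25.7% of the summed TIMP level in siNC and 52.8%, 55.5% and 54.5% in siQk. The sum itself was 137.8 ± 15.4 RPKM in siNC against 145.6 ± 5.54 RPKM in siQk (SD, n = 3 each), a gap within the spread of siNC. After division by the TMM factors the order turned, with means of 145.6 in siNC and 138.2 in siQk. Timp4 was at 4.85 to 7.79 RPKM in siNC and 5.59 to 6.77 RPKM in siQk and was not called (log2 fold change -0.25, FDR 0.37). Timp3 lies at chr10:86300372-86349506 within Syn3, which runs on the opposite strand, and 1733 bases of exon are shared. The listed level of Syn3 was 5.44 to 6.23 RPKM in siNC and 8.85 to 9.81 RPKM in siQk (log2 fold change 0.51, FDR 0.0074), and without strand the reads of the shared bases cannot be told apart. The 3′UTRs of both TIMPs held 1 hexamer each. At least 1 was found in 54.8% of 3′UTRs of a length like that of Timp2 and in 65.8% of those like Timp3. They are printed because the transcripts moved in opposite directions.
Timp2, chr11:118302376-118302405, minus strand: cagagcuuuaucACUAACaauauagacagc
Timp3, chr10:86345943-86345972, plus strand: agcgucccagacACUAACucuucccagaug

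**Figure D3:**
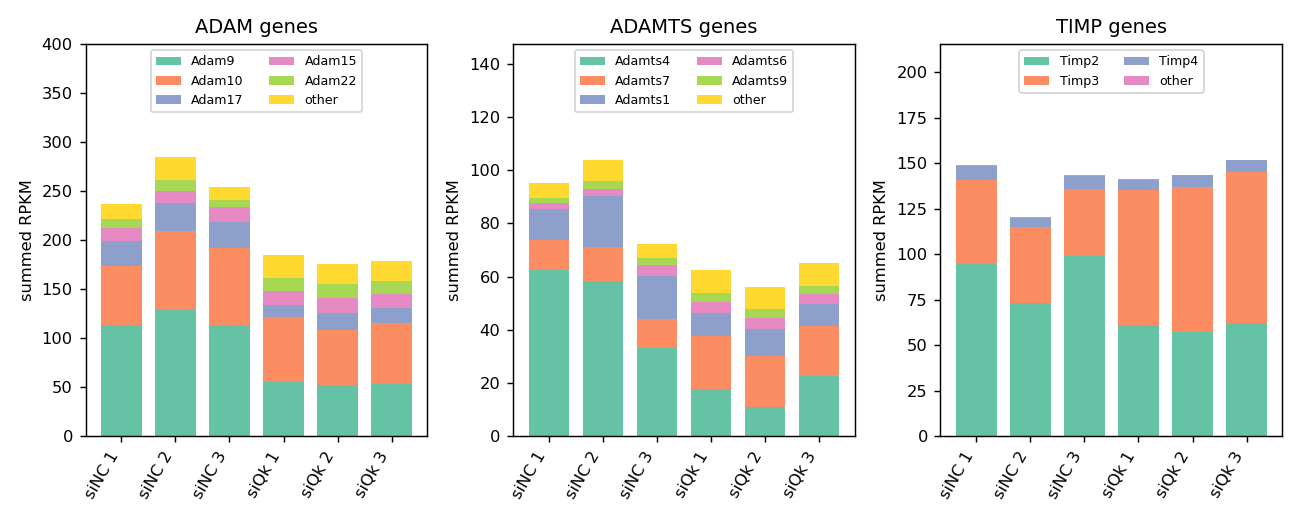
Stacked RPKM of the ADAM, ADAMTS and TIMP genes (y axis, summed RPKM) in each of the 6 libraries (x axis), with the leading genes as colours and the remaining genes of the family as other. The Adam9 and Adamts4 segments are shorter in all siQk libraries, and Timp3 takes over from Timp2 as the longest TIMP segment.

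The MMP genes were mostly silent in these cultures. Of the 6 membrane-type MMP genes 4 were tested and none was called by edgeR at this threshold. An unadjusted P under 0.05 was found for 2 of them (Mmp16 and Mmp24), and DESeq2 called 1 (Mmp16). In edgeR, both were called with library totals alone, and Mmp16 also with no filter, after thinning to the smallest library and without siNC replicate 3. Their summed level was 29.7, 42.4 and 36.3 RPKM in siNC and 47.7, 52.6 and 45.1 RPKM in siQk. The groups were apart on this scale, but not after division by the TMM factors, where siNC replicate 2 (44.1) passed siQk replicate 3 (43.2). Mmp15, the most abundant of them, was at 19.7, 27.1 and 23.3 RPKM in siNC and at 28.7, 32.6 and 25.8 RPKM in siQk, and its groups overlapped (log2 fold change 0.16, SE 0.12, FDR 0.30). Mmp16 was at 3.07, 3.62 and 4.58 RPKM in siNC and at 5.65, 6.07 and 4.86 RPKM in siQk, and Mmp24, which cuts N-cadherin, was at 3.61, 4.37 and 4.91 RPKM in siNC and at 5.57, 5.76 and 6.82 RPKM in siQk. Neither overlapped between the groups, and the log2 fold changes were 0.41 (SE 0.13, FDR 0.0501) for Mmp16 and 0.35 (SE 0.12, FDR 0.060) for Mmp24. Mmp17 was at 3.33, 7.35 and 3.55 RPKM in siNC and at 7.84, 8.15 and 7.64 RPKM in siQk. As with Adam19 and Adamts5, siNC replicate 2 stood near the siQk libraries, and the log2 fold change of Mmp17 was 0.58 (FDR 0.15) with it and 1.03 (FDR 0.0018), a call, without it. Mmp14, the membrane-type enzyme best known for activating Mmp2, had no tag in 5 libraries and 3 tags in siQk replicate 2.

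Of the 17 other MMP genes 3 were tested. Mmp19, a secreted enzyme of basement membrane proteins, was at 3.46, 4.80 and 4.40 RPKM in siNC and at 2.75, 2.60 and 2.78 RPKM in siQk. The groups were apart, with a log2 fold change of -0.78 (SE 0.12, FDR 0.0040). Its exons share 789 bases with Tmem198b on the opposite strand, which was lower as well (log2 fold change -0.58, FDR 0.0047), and without strand the reads of the shared bases cannot be told apart. Mmp23 and Mmp28 had log2 fold changes of 0.77 (SE 0.30) and -0.30 (SE 0.29) and were not called. The gelatinases Mmp2 and Mmp9, named here for their role and not tested, reached 0.0909 and 0.188 RPKM in their highest library. The 10 MMP genes that lie side by side on chromosome 9 (chr9:7272514-7699585, Mmp13 at one end and Mmp7 at the other) held at most 9 tags for any gene in any library, and 7 of them had no tag at all.

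In all, 48 members were not tested, and none of them exceeded 0.544 RPKM in any library. No tag was found for 16 of the 48, and 28 stayed under 10 tags in every library. With no filter on low counts, 67 members could be tested, and 5 of the 48 were called, all lower in siQk. They were Adam32 (log2 fold change -1.30), Adamts14 (-2.28), Adamtsl4 (-1.56), Timp1 (-1.74) and Mmp11 (-1.92). Their share of the members added by this fit was below the 23.4% called of all genes, which include abundant ones. No share of lower calls over all genes was taken for this fit. Timp1, the inducible TIMP, had 27, 40 and 64 tags in siNC (0.522, 0.406 and 0.544 RPKM) and 20, 10 and 20 tags in siQk (0.159, 0.136 and 0.178 RPKM). Its levels were apart between the groups but below 1% of the TIMP sum in every library.

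Genes that activate, assist, inhibit or bind these proteinases, or are known to be cut by them, were listed as partners (51 genes). Of them 38 were tested and 16 were called (42.1%, against 31% of all genes), 12 lower (31.6%, against 17.2%) and 4 higher (10.5%, against 13.8%). None of the 4 proprotein convertases, which remove the prodomains of ADAMs and membrane-type MMPs, was called by edgeR, which gave an unadjusted P under 0.05 for 2 of them (Pcsk6 and Pcsk7). DESeq2 called both. Furin was at 11.8 to 16.5 RPKM in siNC and 14.9 to 15.5 RPKM in siQk (log2 fold change -0.04, FDR 0.75), and Pcsk6 had -0.80 (FDR 0.067).

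The tetraspanins that accompany Adam10 to the cell surface had 2 of 5 tested genes called (40%, against 31% of all genes). Both were lower (40%, against 17.2%). Tspan15 was at 48.4, 38.7 and 36.1 RPKM in siNC and at 24.9, 20.7 and 24.4 RPKM in siQk. All siQk libraries were lower (log2 fold change -0.97, SE 0.16, FDR 0.0049). Tspan17 had a log2 fold change of -0.65 (FDR 0.028), and Tspan14, the most abundant of them, -0.22 without a call. Rhbdf1, one of the iRhoms that carry Adam17 to the surface, had a log2 fold change of -0.25 (FDR 0.17), and Rhbdf2 was not tested, with at most 0.0162 RPKM.

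Reck, a membrane-anchored inhibitor of MMPs, was at 6.60, 9.83 and 6.59 RPKM in siNC and at 3.90, 3.55 and 4.56 RPKM in siQk, without overlap (log2 fold change -1.09, SE 0.18, FDR 0.0056). Plat, which encodes tissue plasminogen activator, was at 59.9, 60.1 and 64.2 RPKM in siNC and at 27.0, 29.1 and 30.9 RPKM in siQk. Serpine2, an inhibitor of plasminogen activators and thrombin, was at 76.3, 88.9 and 101 RPKM in siNC and at 154, 143 and 169 RPKM in siQk. The activator was thus lower in every siQk library (log2 fold change -1.23, SE 0.07, FDR 0.00037) and the inhibitor higher in every one (0.66, SE 0.10, FDR 0.0044).

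Of the LGI ligands of the non-catalytic ADAMs, Lgi4 was at 5.57, 8.61 and 6.0 RPKM in siNC and at 0.966, 0.973 and 0.877 RPKM in siQk. It was lower in each siQk library (log2 fold change -2.99, SE 0.18, FDR 0.00037). Lgi3 was also lower (-0.99, FDR 0.022), and Lgi2 was not called. Among proteins known to be cut by members, 18 of 22 were tested. Of these 6 were called lower (33.3%, against 17.2% of all genes) and 3 higher (16.7%, against 13.8%). Reln, the secreted reelin protein, had a log2 fold change of -3.24 (SE 0.24), Cd44, a hyaluronan receptor, -1.85 (SE 0.13), Hbegf, a growth factor shed by ADAMs, -1.72 (SE 0.30), and Tnfrsf21, the death receptor DR6, -1.35 (SE 0.27). Ncam1 and App, at -0.68 and -0.38, were lower by less. The higher ones were the adhesion molecule L1cam (1.15, SE 0.30), the NG2 proteoglycan Cspg4 (0.93, SE 0.14) and the synaptic adhesion protein Nlgn3 (0.44, SE 0.08). The lecticans, matrix proteoglycans cut by Adamts4, were not called by edgeR, with log2 fold changes of -0.17 for Bcan, 0.26 for Ncan and 0.42 for Vcan. For Ncan and Vcan the siQk libraries were all above the siNC libraries and the unadjusted P was under 0.05, and DESeq2 called Ncan. These are transcript levels and hold no measure of cutting.

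**Figure D4:**
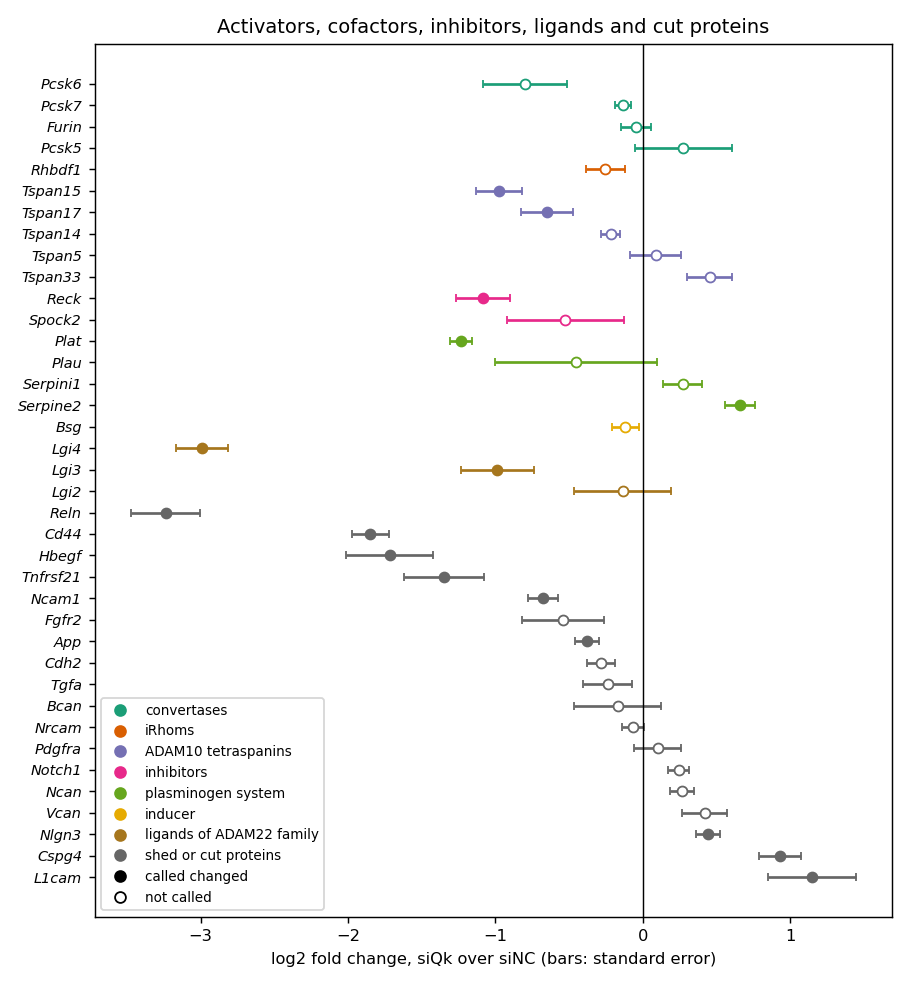
Log2 fold change of siQk over siNC (x axis) with its standard error for the 38 tested partner genes (y axis), coloured by kind. Filled points are the 16 called changed, with Reln and Lgi4 at the low end and L1cam at the high end, and all 4 convertases are open points.

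Marker lists were read beside these results. Of 8 OPC markers, 3 were called higher (Cspg4, Olig1 and Olig2, 37.5% against 13.8% of all genes) and 1 lower (Lhfpl3, 12.5% against 17.2%). The summed level of the 8 was 1023 to 1100 RPKM in siNC and 1217 to 1370 RPKM in siQk. Of 5 tested astrocyte markers 3 were lower (60%, against 17.2% of all genes). The astrocyte list summed to 173 to 254 RPKM in siNC and 131 to 150 RPKM in siQk, with Gja1 under 0.1 RPKM throughout. The 6 neuron markers summed to 102 to 172 RPKM in siNC and 81.4 to 120 RPKM in siQk, mostly from Tubb3, which was not called. Of the 5 tested, 2 were higher (Snap25 and Nefl, 40% against 13.8% of all genes), and Stmn2 was under 0.1 RPKM. Microglia markers summed to 0.718 to 3.31 RPKM in siNC and 0.332 to 0.409 RPKM in siQk, with 5 of 7 under 0.1 RPKM in every library. The sum was almost all P2ry12 (0.669, 3.20 and 1.19 RPKM in siNC), while the microglia markers C1qa, Cx3cr1 and Tmem119 were at 0 or near it in every library. Fibroblast and vascular markers summed to 3.39 to 5.74 RPKM in siNC and 4.45 to 5.46 RPKM in siQk, with 6 of 10 under 0.1 RPKM in every library. The part of other cells in the levels of the members was not tested. Replicate 2 exceeded both other siNC libraries by more than 1.5-fold for 4 tested members (Adam19, Adamts3, Adamts5 and Mmp17), while siNC replicate 3 did so for 1 member and no other library for any.

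**Figure D5:**
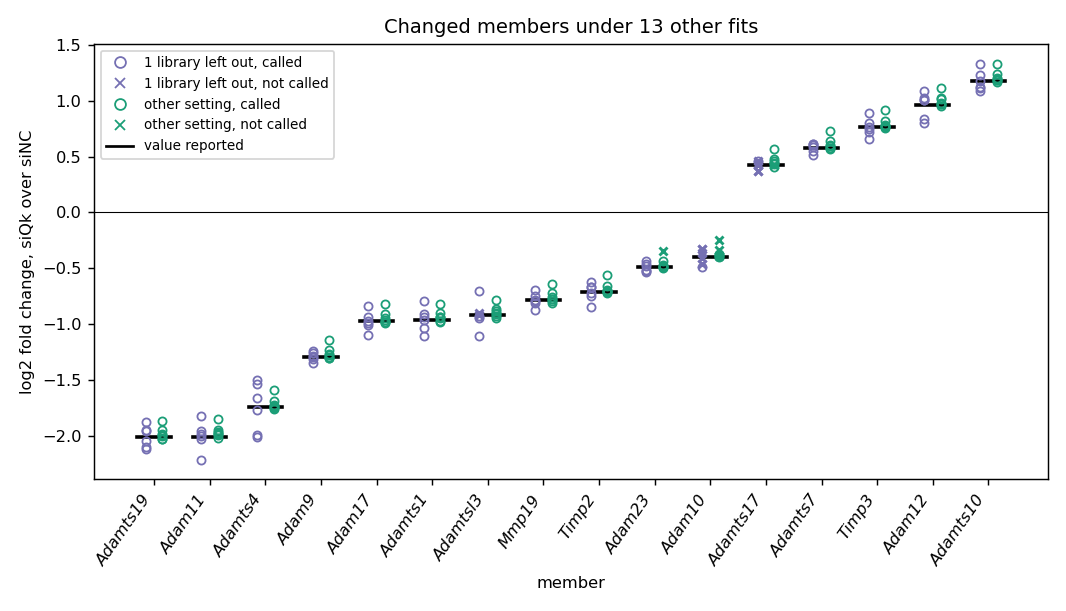
Log2 fold change of siQk over siNC (y axis) of the 16 called members (x axis) under 13 other fits, 6 of which leave out 1 library (purple) and 7 of which change the test, scaling, filter, block or depth (green). Black lines are the values reported, circles are fits in which the gene was called and crosses those in which it was not, and no symbol changes sides of 0.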

How the data were processed

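RNA of mOPCs was measured in 6 libraries (3 siNC, 3 siQk). Per the study's methods, 75-nt paired-end reads of poly-A RNA were aligned to mm10 with OLego, and genes were quantified with Quantas (tool versions and annotation are not given in the sources used here). The authors deposited, for each gene and library, an estimated count of tags, the exon length as a number of bases, and RPKM. The deposited RPKM equals tags divided by exon length and library total, as was checked. RPKM is therefore not corrected for composition between libraries.

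Tags were rounded and tested with edgeR 4.0.16 (limma 3.58.1, R 4.3.3) on all 12505 genes with an average logCPM over 0, with TMM factors, the group as the only term and Benjamini-Hochberg adjustment. The SE was obtained as the size of a log2 fold change over the square root of its F statistic. Replicates of a group differed by more than sampling noise, so each counted once. Rn45s, a ribosomal RNA gene, took 3.11% of tags in siNC replicate 1 and 0.169% to 0.389% elsewhere. On simulated data for siQk over siNC (12482 genes tested, 198 changed), 93.4% were recovered and 11.1% of the calls were false. Every changed gene in it was moved by at least 1 on the log2 scale, so the smaller changes of most called members were not covered. The share of genes changed in it was also far below the 31% called in the data. Hexamers were searched in the longest 3′UTR of a protein-coding transcript of each gene, of at least 50 bases, and all 83 members matched GENCODE M21 by symbol. Protein sequences were not analysed here.

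The text names Qk, called members, members with a mean of at least 10 RPKM, the 5 tested members nearest to the call, and called partners. Other members and partners were named for their role or after their values were seen. Some items are not reported here. The members, partner and marker lists were chosen with earlier results of these data known. The alternatives were DESeq2 1.42.0, other scalings and filters, FDR below 0.05 alone, the replicate number as a block and each library left out. Thinning to the smallest library was added after seeing the data.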

Additional observations from a re-analysis of the deposited data

How the results depend on the processing

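Of the 16 called members, 12 kept their call in all 14 alternatives and 13 in all 6 that left out a library, the exceptions being Adam10, Adamts17, Adamtsl3 and, with library totals alone, Adam23. The count called changed was 13 to 18 with 1 library left out, the lower count 9 to 12, and the higher count 4 to 8, the highest without siNC replicate 2. It was 17 by DESeq2 and 17 after thinning, both with Mmp16 added. With library totals alone 8 were higher, the median log2 fold change of the members was 0.19 and Adam15 turned to 0.11. Adam15 also turned to 0.019 with upper quartile factors and ran from -0.13 to 0.032 with 1 library left out, the latter without siNC replicate 3. With edgeR's filterByExpr 17 of 51 tested were lower, and the median of the members was -0.14, beside 0.0088 over all genes. With no filter, where 67 members were tested, it was -0.22, beside -0.0050 over all genes. The median ran from -0.086 to 0.21 with 1 library left out. Divided by the TMM factors, the summed RPKM in siNC and siQk was 272.4 and 170.2 for ADAM, 95.6 and 58.2 for ADAMTS, 145.6 and 138.2 for TIMP, 38.0 and 46.0 for membrane-type MMP and 6.46 and 4.53 for the other MMP genes. Qk stayed between -2.29 and -1.76 with 1 library left out. The partner genes called were 12 to 18 with 1 library left out and 22 by DESeq2. Same-numbered libraries did not deviate together (correlations of the deviations -0.053, -0.15 and -0.34). With the replicate number as a block, 14 members were called, 10 lower and 4 higher, with Adam10 and Adamts17 lost, and Qk was at -2.03. The share of all genes called under each of these settings is not given beside the counts. A shift in the calls of all genes and one in those of the members are therefore not told apart. Of 532 log2 fold changes of single genes under alternatives, 486 kept direction and call, 35 lost the call, 8 gained it and 3 changed sign. The causes were not tested. Many of the untested members rest on few tags, 28 of the 48 with under 10 in every library. With 3 libraries a group, changes of low transcripts may be missed.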
